A study of Mus musculus with 27 samples.

Results

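Livers of mice given carbon tetrachloride (CCl4) were set against livers of mice not given it, in 4 treatment arms of one experiment at the same time. RNA-seq counts of 27 livers, 1 per mouse, entered the comparison: 14 with CCl4 and 13 without. The mice were 8-week-old female Balb/c mice, and those without CCl4 received olive oil by the same intraperitoneal route. In the arm with no further treatment, 4 control mice (olive oil, and PBS into the tail vein) were compared with 2 CCl4 mice, whose labels name no tail vein injection. In the 4MU arm, 3 mice given 4-methylumbelliferone (4MU, an inhibitor of hyaluronan synthesis) by daily gavage were compared with 4 mice given CCl4 and 4MU. In the siLuc-LNP arm, 3 mice given lipid nanoparticles (LNP) with a non-targeting siRNA against luciferase were compared with 4 that also had CCl4, and in the siHAS2-LNP arm 3 mice given nanoparticles with an siRNA against hyaluronan synthase 2 were compared with 4 that also had CCl4. The question was which transcripts changed with CCl4 whatever else the mouse had been given. The 4 arms share no library, so that each arm gave its own estimate of the CCl4 effect.

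CCl4 is converted to a reactive radical by cytochrome P450 enzymes, chiefly CYP2E1, which hepatocytes around the central vein of the lobule hold in the largest amounts, so that those cells are the first to die. The tissue answers with division of the surviving hepatocytes, with macrophages that clear the debris, and with stellate cells that turn into collagen-producing myofibroblasts. In bulk RNA, fewer cells of a type and less RNA per cell cannot be told apart.

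Total counts ranged from 7044386 to 29425937 per library with a median of 22109517, so that a floor of 3 counts stood for 0.104 to 0.401 CPM (counts scaled to a common library total, by TMM). The lowest total belonged to CCl4 + siHAS2-LNP mouse 4. Of 55414 listed genes, 14114 reached an average of 10 counts over the libraries and were tested. On the first principal component, which held 47.0% of the variance, the 14 CCl4 livers lay between 24.0 and 81.9 and the 13 others between -58.0 and -35.4. Has2, the target of the siRNA, had 0 counts in the 13 livers without CCl4 and 3 counts in all in those with it, and therefore gave no check of the siHAS2-LNP labels.

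With the arm as a block, 3481 genes were higher and 3295 lower with CCl4 (edgeR quasi-likelihood test, Benjamini-Hochberg adjusted p under 0.05), which were 24.7% and 23.3% of the genes tested. Of these, 2979 and 2626 had the same sign in every arm. Genes that passed the threshold within each of the 4 arms were fewer, 574 higher and 230 lower, or 4.07% and 1.63% of the genes tested. They made up 16.5% of the genes called higher and 6.98% of those called lower in the blocked test. These 804 genes, called common genes here, are described below. Since passing in every arm chose them, their counts and medians are a description and not a further test.

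**Figure D1:**
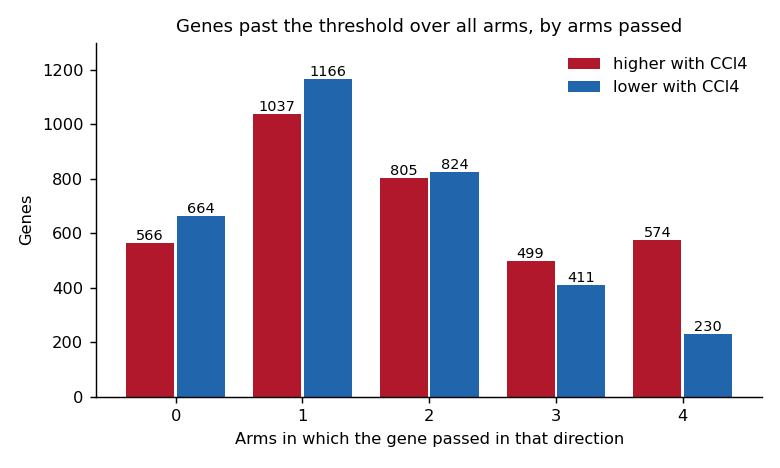
Number of genes past the threshold in the blocked comparison (y axis) by the number of arms, 0 to 4, in which they also passed in the same direction (x axis), in red for genes higher with CCl4 and in blue for genes lower. Both directions peaked at 1 arm (1037 higher and 1166 lower), and in all 4 arms the higher genes (574) outnumbered the lower (230).

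The arms did not contribute equally. Arm none called 2537 genes higher and 2268 lower (18% and 16.1% of those tested), the 4MU arm 1864 and 1486 (13.2% and 10.5%), the siLuc-LNP arm 1841 and 1577 (13% and 11.2%) and the siHAS2-LNP arm 1093 and 719 (7.74% and 5.09%). The siHAS2-LNP arm called the fewest genes in this fit, but its order against the siLuc-LNP arm turned with limma-voom (3455 against 2927 genes) and with each arm fitted alone (2329 against 1504). Single livers moved these counts: arm none called 4805 genes in all and 2154 without CCl4 mouse 2, the siHAS2-LNP arm 1812 and between 1026 and 1094 without any 1 of siHAS2-LNP mice 1, 2 and 3, and the 4MU arm 3350 and 2138 without 4MU mouse 3. Among genes called higher in the blocked test, 499 passed in 3 arms, 805 in 2, 1037 in 1 and 566 in none, and among genes called lower 411, 824, 1166 and 664.

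The common higher genes had a lower median level without CCl4 than the common lower genes, though both directions held scarce and abundant transcripts. The 574 higher genes had a median level of 1.5 CPM in the livers without CCl4 and 8.41 CPM with it, and together took 0.530% to 0.626% of a library's counts without CCl4 and 1.26% to 2.08% with it. The 230 lower genes had a median of 42.1 CPM without CCl4 and 15.6 CPM with it, and fell from between 5.04% and 6.47% of the counts to between 1.48% and 2.68%. Neither share overlapped between the 14 and the 13 livers, but the same livers chose the genes, so that this is a description and no result. Their median log2 fold changes in the blocked fit were 2.26 and -1.20, beside -0.01 over all tested genes. In 16 of the higher genes every liver without CCl4 had 3 counts or fewer, and with those genes held at the bound which that floor allows the median was again 2.26. Changes beyond 4 on the log2 scale were found in 95 of the higher and 22 of the lower genes.

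Separation of single livers was a stricter measure than the test. Over all tested genes, the 14 CCl4 livers lay entirely above the 13 others in 453 genes (3.21%) and entirely below in 194 (1.37%). Of the common genes this held for 397 higher and 147 lower. The genes named below for the largest changes or the smallest p values were drawn from these, so that their separation is a description.

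Promoter sequences of 8 genes are given first, to show the letters just before the start sites of mitotic, DNA replication and P450 genes. Each run holds the 150 bases before the start, 5′ to 3′ on the gene's own strand, from the RefSeq promoter table of build GRCm38.p6. Capitals mark motifs found on either strand, and no marked motifs overlap. Cdc20, Cdk1 and Top2a were chosen for display after their values and motifs were seen. In the mitotic genes the capitals are the NF-Y box CCAAT (read as ATTGG on the opposite strand) and TTTGAA, the core of the cell cycle homology region (CHR; TTCAAA on the opposite strand). Mcm6, a subunit of the replicative helicase, has the E2F letters TTTGGCGC in place of the CHR.

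Cdc20 (chr4:118437344-118437493, minus strand): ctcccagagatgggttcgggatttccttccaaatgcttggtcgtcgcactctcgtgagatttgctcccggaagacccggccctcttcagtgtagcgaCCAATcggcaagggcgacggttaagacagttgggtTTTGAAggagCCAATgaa

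Cdk1 (chr10:69352913-69353062, minus strand): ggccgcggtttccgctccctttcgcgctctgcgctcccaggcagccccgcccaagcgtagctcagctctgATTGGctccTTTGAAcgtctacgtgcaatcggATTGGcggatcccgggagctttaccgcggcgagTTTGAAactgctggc

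Top2a (chr11:99024190-99024339, minus strand): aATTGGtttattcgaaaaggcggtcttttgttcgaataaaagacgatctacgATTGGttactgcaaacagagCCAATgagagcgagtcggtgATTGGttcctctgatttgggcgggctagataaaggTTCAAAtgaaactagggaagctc

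Mki67 (chr7:135716380-135716529, minus strand): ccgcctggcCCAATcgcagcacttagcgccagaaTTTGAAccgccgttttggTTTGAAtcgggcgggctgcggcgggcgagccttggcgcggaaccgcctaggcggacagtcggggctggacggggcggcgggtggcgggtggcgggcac

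Mcm6 (chr1:128359706-128359855, minus strand): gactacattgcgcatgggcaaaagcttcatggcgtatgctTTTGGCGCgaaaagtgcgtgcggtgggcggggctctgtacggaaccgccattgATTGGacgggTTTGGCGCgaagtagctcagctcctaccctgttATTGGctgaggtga

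The P450 genes shown carried other letters. All held CAAAGTCCA, a binding sequence of the hepatocyte factor HNF4 alpha. Cyp3a16 and Cyp3a41a also held TATAAA, the letters of the TATA box, beginning 126 and 122 bases before the annotated start. Whether TATAAA at that distance serves as a TATA box was not tested. In Cyp3a16 and Cyp3a41a the same arrangement stood at nearly the same distance from the start, with the HNF4 letters beginning 99 and 95 bases before it, and Cyp2c69 held the HNF4 letters 75 bases before the start.

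Cyp3a16 (chr5:145469724-145469873, minus strand): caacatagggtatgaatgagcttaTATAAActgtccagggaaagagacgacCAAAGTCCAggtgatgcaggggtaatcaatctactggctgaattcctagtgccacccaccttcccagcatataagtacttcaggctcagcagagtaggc

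Cyp3a41a (chr5:145720137-145720286, minus strand): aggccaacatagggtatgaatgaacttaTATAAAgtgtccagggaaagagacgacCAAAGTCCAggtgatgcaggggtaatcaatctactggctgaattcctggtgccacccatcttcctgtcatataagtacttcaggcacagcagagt

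Cyp2c69 (chr19:39886770-39886919, minus strand): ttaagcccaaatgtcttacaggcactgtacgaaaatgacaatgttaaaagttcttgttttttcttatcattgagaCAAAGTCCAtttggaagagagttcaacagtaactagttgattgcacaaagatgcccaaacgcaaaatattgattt

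Over windows from 250 bases before to 50 after the start, 13339 windows of 10424 tested genes were searched. TTTGAA stood in 73.9% of the 23 windows of the mitosis list and in 12.7% of all windows, CCAAT in 82.6% and 37.4%, and both together in 69.6% and 5.04%. The E2F letters (TTTGGCGC or TTTCCCGC) stood in 34.8% of the 23 windows of the DNA replication list and in 2.75% of all windows. In the 39 windows of the P450 list, TATAAA stood in 59.0% and CAAAGTCCA in 17.9%, beside 7.93% and 0.585% of all windows. TTTGAA was not particular to the mitosis list: it stood in 30.8% of the P450 windows and 27.3% of the 11 pericentral windows. Among the common genes the shares were closer to those of all windows: TTTGAA in 20.2% of 554 windows of the higher genes, TATAAA in 17.0% and CAAAGTCCA in 3.14% of 223 windows of the lower genes. The antioxidant response letters TGACNNNGC stood in 14.8% and 12.1% of the higher and lower windows and in 14.2% of all. Windows of near-identical paralogs share their letters, and a match describes letters only.

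**Figure D2:**
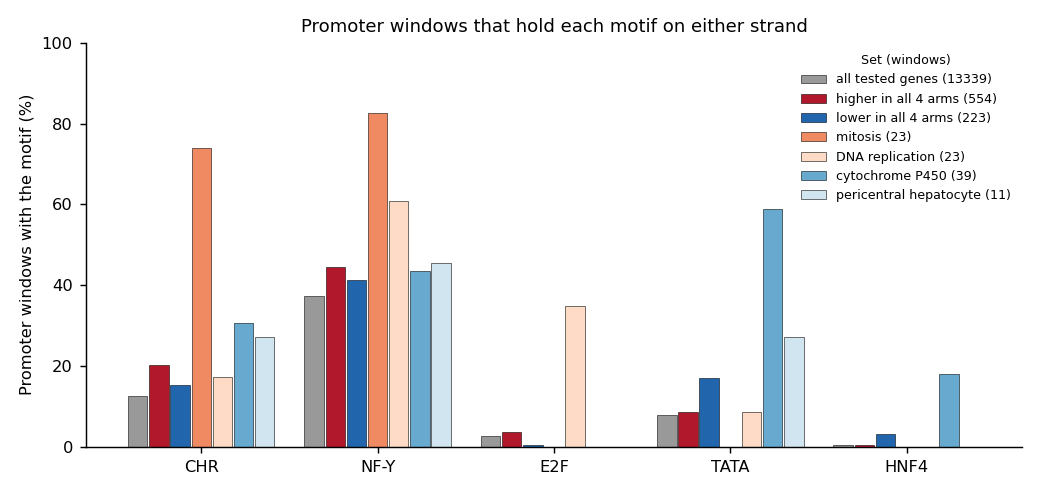
Share of promoter windows (y axis, percent) that held each motif on either strand (x axis), for all tested genes, the common higher and lower genes and 4 gene lists, with the number of windows of each set in the legend. CHR and NF-Y letters were most frequent in the mitosis list (73.9% and 82.6%), E2F letters in the DNA replication list (34.8%), and TATA and HNF4 letters in the cytochrome P450 list (59.0% and 17.9%).

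The largest pericentral losses were seen in every arm. Slc1a2, the glutamate transporter that marks the innermost row of hepatocytes, ran from 67.4 to 119 CPM (median 90.4) in the 13 livers without CCl4 and from 0 to 0.712 CPM (median 0.187) in the 14 with it, 24786 counts in all against 73. No liver came near the other group, and the highest with CCl4 was CCl4 + 4MU mouse 4. The blocked log2 fold change was -8.72 (SE 0.25, adjusted p = 3.56e-20), the smallest p among the genes lower in all arms. Glul, glutamine synthetase of the same hepatocytes (chr1:153775690-153785469, GRCm39), ran from 452 to 1098 CPM (median 789) without CCl4 and from 37.5 to 59.8 CPM (median 49.5) with it. The 14 CCl4 livers thus lay within a narrow band, whatever their arm. Its log2 fold change was -3.97 (SE 0.12, adjusted p = 4.64e-20), and the 4 arms gave -3.73 (none), -4.00 (4MU), -4.11 (siLuc-LNP) and -4.00 (siHAS2-LNP). Oat, ornithine aminotransferase, ran from 380 to 838 CPM (median 525) without CCl4 and from 20.9 to 56.2 CPM (median 31.5) with it (-4.06, SE 0.15). Pcp4l1, a protein related to the calmodulin regulator Pcp4, fell from a median of 85.8 to 4.63 CPM (-4.33, SE 0.17, adjusted p = 4.01e-17) and was also among the 5 smallest p values of the lower genes.

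Of the 16 pericentral genes tested, 13 were lower and none higher in the blocked test (1 higher without CCl4 mouse 2), and 5 were lower in all 4 arms: Glul, Oat, Slc1a2, Cyp2e1 and Cyp2a5. The summed level of the list ran from 8966 to 13720 CPM without CCl4 and from 1346 to 4287 CPM with it. Lgr5, a receptor for R-spondins that amplifies Wnt signals, had a log2 fold change of -0.97 (SE 0.17, adjusted p = 3.1e-05), and Axin2, a feedback target of Wnt signalling, of 0.03 (SE 0.17, adjusted p = 0.908). Cyp7a1, the rate-limiting enzyme of bile acid synthesis, did not pass in the blocked test (0.15, SE 0.43, adjusted p = 0.796). Its arms ran from -3.18 in arm none to 1.68 in the 4MU arm, and they differed (adjusted p = 0.0118). The other 2 that did not pass were Axin2 and Ahr, the aryl hydrocarbon receptor (0.21, SE 0.13).

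**Figure D3:**
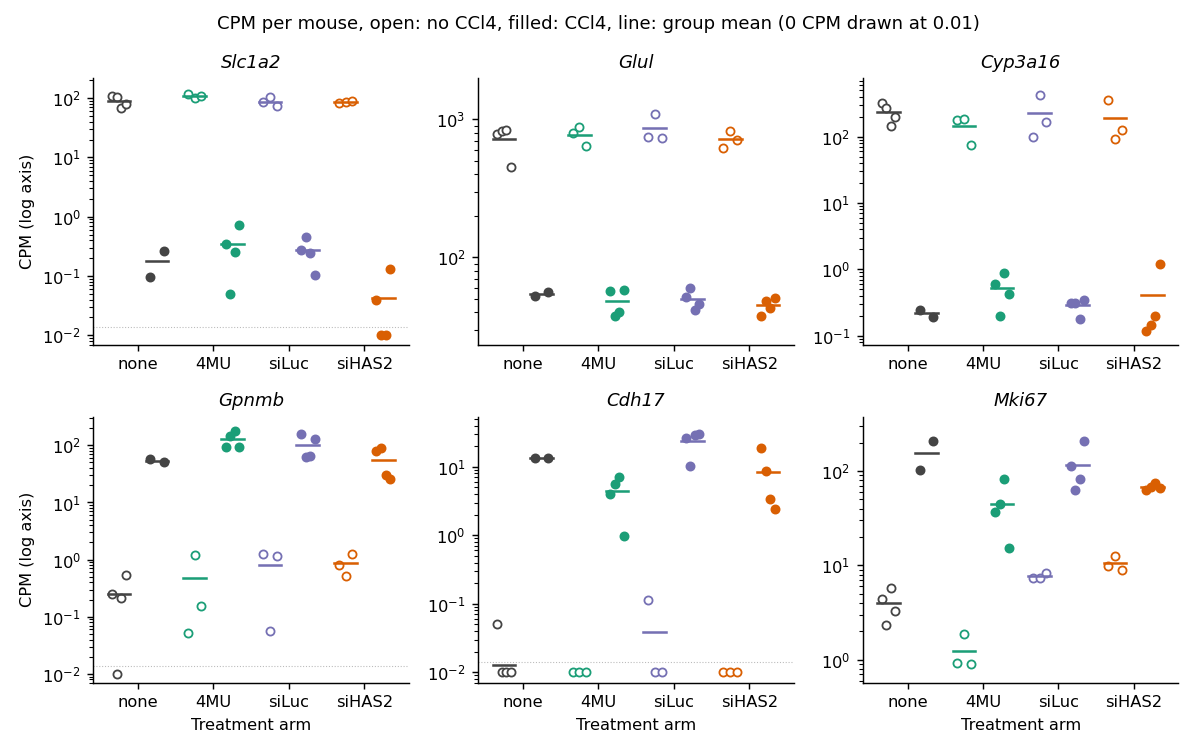
CPM of 6 genes called in the same direction in every arm (y axes, log scale) in each mouse by arm (x axis), with open points for mice without CCl4, filled points for CCl4 mice and lines at group means; 0 CPM is drawn below the dotted line. The open and filled points do not overlap in any panel: Slc1a2, Glul and Cyp3a16 fell, and Gpnmb, Cdh17 and Mki67 rose.

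Cytochrome P450 genes of the Cyp3a cluster had the largest fitted losses of the common genes described here. Cyp3a16, a female-biased member of the Cyp3a cluster, ran from 73.8 to 420 CPM (median 181) without CCl4 and from 0.117 to 1.20 CPM (median 0.276) with it, or 54488 counts against 113. Every CCl4 liver was below every other liver, and the fold change was -9.10 on the log2 scale (SE 0.37, adjusted p = 5.33e-17). Cyp3a41a and Cyp3a41b, near-identical copies whose reads cannot be placed with certainty, had 15922 and 7454 counts without CCl4 and 24 and 15 with it. Cyp2c69 went from a median of 94.4 CPM to 1.37 CPM (log2 fold change -6.17, SE 0.33), and Cyp2a5, a coumarin hydroxylase, from 793 to 19.6 CPM (-5.38, SE 0.24). Both were again separated in all 27 livers. The main inducible member of the cluster did not follow: Cyp3a11 ran from 1273 to 3827 CPM (median 2373) without CCl4 and from 1466 to 2981 CPM (median 2304) with it (-0.07, SE 0.14, adjusted p = 0.717).

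Of 40 P450 genes tested, 25 were lower and 2 higher in the blocked test, and 15 lower and 1 higher in all 4 arms. The list's median log2 fold change was -0.97, beside -0.01 over all tested genes. The 1 higher in every arm was Cyp2c55, from a median of 4.00 CPM (1.03 to 8.22) to 17.5 CPM (6.65 to 37.8; log2 fold change 2.35, SE 0.29, adjusted p = 2.18e-07), and without CCl4 mouse 2 no P450 gene was higher in all 4 arms. The other higher one, Cyp1a1, passed in arm none and the siLuc-LNP arm (blocked 1.08, SE 0.29). Cyp2e1, the enzyme that activates CCl4, ran from 4331 to 8414 CPM (median 6317) without CCl4 and from 214 to 2177 CPM (median 1225) with it (-2.71, SE 0.27, adjusted p = 3.53e-09). All 14 CCl4 livers were below the 13 others, and the size of the drop differed between arms, as given below.

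Several sulfotransferases, which conjugate steroids, bile acids and drugs, were lower in every arm. Sult3a1 had between 53 and 1003 counts in a liver without CCl4 and between 0 and 7 with it (medians 13.7 and 0.0388 CPM). No liver overlapped. Sult2a3 fell from a median of 37.9 CPM (3.35 to 60.2) to 1.02 CPM (0.139 to 1.59; log2 fold change -5.38, SE 0.33, adjusted p = 4.28e-13), and Sult2a1, Sult2a2 and Sult2a8 were lower in all 4 arms as well. Among 38 conjugating enzymes tested, 22 were lower and 3 higher in the blocked test, and 8 were lower in all 4 arms. The 3 higher ones were Gsta1, Gstp1 and Gstp2, glutathione S-transferases, and none passed in every arm. Gsta1 had a median of 0.204 CPM without CCl4 and 2.38 CPM with it (2.42, SE 0.52, adjusted p = 0.000386), with arms from 0.35 (4MU) to 4.56 (siLuc-LNP).

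The major urinary proteins, pheromone carriers of the lipocalin family made under growth hormone control, are coded by a cluster of near-identical genes on chromosome 4, so that values of single members are uncertain. Of the 22 listed, 9 could be tested, and 8 of these were lower and 1 higher in the blocked test, with 5 lower in all 4 arms, or 1 without CCl4 mouse 2. Mup18 had between 7 and 1135 counts in each liver without CCl4 and between 0 and 2 with it. Mup20, the male-specific pheromone darcin, ran the other way, from a median of 7.01 CPM to 15.6 CPM (log2 fold change 1.32, SE 0.22, adjusted p = 1.57e-05). The pseudogenes Mup-ps2, Mup-ps10 and Mup-ps13 were lower in every arm, from medians of 1.17, 1.54 and 1.58 CPM to medians of 0. In the growth hormone axis itself, Ghr, the receptor (-1.22, SE 0.13, adjusted p = 2.22e-08), and Igf1, its secreted effector (-0.81, SE 0.11, adjusted p = 8.7e-07), were lower in all 4 arms, and Socs2, its feedback inhibitor, was lower in the blocked test (-1.51, SE 0.22). Of 8 genes tested in that list, 5 were lower and 2 higher, Igfbp1 and Egfr, with 1 higher without CCl4 mouse 2, without CCl4 + siLuc-LNP mouse 4 or without arm none. Without CCl4 + 4MU mouse 4, 1 of the list was lower in all 4 arms.

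Bile acid genes had 16 of 23 tested lower and 2 higher, with Cyp7b1, the oxysterol hydroxylase, lower in all arms (median 26.1 CPM to 4.09; -2.70, SE 0.14, adjusted p = 1.68e-14) and Abcc2, the canalicular conjugate exporter, higher in all arms (0.70, SE 0.10). Of 30 plasma protein genes, 14 were lower (9 without arm none) and 2 higher, and 1, Apoa2, was lower in all 4 arms (-1.48, SE 0.19, adjusted p = 3.06e-07). Alb ran from 92697 to 172725 CPM without CCl4 and from 58085 to 149049 CPM with it, and the groups overlapped (-0.27, SE 0.14, adjusted p = 0.106). Of 20 hepatocyte transcription factors, 8 were lower and none higher, and no member passed in every arm. Hnf4a was at medians of 469 and 517 CPM (0.02, SE 0.09, adjusted p = 0.908).

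In the metabolic lists below, 1 gene passed in every arm. Over all tested genes 4.07% passed higher and 1.63% lower in every arm, so that so low a count is no result. Lipogenesis had 4 of 10 lower (23.3% over all tested genes), with Elovl3, a fatty acid elongase, lower in all arms (median 1.83 CPM to 0.0681; -4.99, SE 0.45, adjusted p = 6.43e-10). Fatty acid oxidation had 7 of 16 lower, beside the same 23.3%, led by Acaa1b (-0.71, SE 0.20), none of them in all 4 arms and with no member higher. Cholesterol synthesis had 2 of 10 lower, led by Insig1 (-0.90, SE 0.28), and the circadian clock 3 of 15, shares that did not exceed the 23.3% lower over all tested genes. Without arm none they were 1 and 0, and the cholesterol count was 1 without CCl4 mouse 2 and 4 without CCl4 + 4MU mouse 4. The antioxidant list had 3 of 17 higher, led by Pgd (0.45, SE 0.15), and 2 lower, led by Ftl1 (-0.47, SE 0.12), which also did not exceed 24.7% and 23.3%. These medians, from -0.85 for lipogenesis to -0.14 for the antioxidant list, were small beside -4.68 for the major urinary proteins.

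Mitotic genes, which serve spindle, cohesion and division, rose. Of 26 tested, 26 were higher in the blocked test and 25 in all 4 arms, and in 21 the 14 CCl4 livers lay above the 13 others. The exception, Kif23, a kinesin of the midbody, was at 1.14 with adjusted p = 0.061 in the siHAS2-LNP arm. Mki67, a protein of dividing nuclei, ran from 0.912 to 12.6 CPM (median 5.81) without CCl4 and from 15.4 to 209 CPM (median 71.2) with it (4.14, SE 0.32, adjusted p = 2.66e-11). The lowest CCl4 liver was CCl4 + 4MU mouse 4 and the highest CCl4 mouse 2, and no liver overlapped. Ttk, a checkpoint kinase, had the largest change (5.24, SE 0.34, adjusted p = 9.92e-13), from a median of 0.295 to 8.25 CPM. Cdca3, a cell division gene outside that list, was among the 5 smallest p values of the higher genes, from 2.18 CPM (1.02 to 5.26) to 36.5 CPM (10.4 to 43.8; 3.81, SE 0.19, adjusted p = 9.7e-15).

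DNA replication genes rose in the blocked test as well, 23 of 24 with none lower, but 6 passed in all 4 arms: Mcm5, Mcm6, Gins2, Pole, Rrm2 and Tyms. By arm, 23 were higher in arm none, 12 with 4MU, 19 with siLuc-LNP and 6 with siHAS2-LNP. Mcm10 was the member not called (0.05, SE 0.16). The list's median log2 fold change was 3.20 in arm none, 1.18 with 4MU, 1.62 with siLuc-LNP and 0.65 with siHAS2-LNP, and 13 members differed between arms by the test of the difference. For mitosis the same medians were 5.52, 4.88, 4.35 and 2.68, and 15 members differed. For DNA replication and mitosis, 15 and 20 members differed without CCl4 + 4MU mouse 4, and 18 and 22 without CCl4 + siLuc-LNP mouse 4. Without CCl4 mouse 2 the members that differed were 3 for DNA replication and 1 for mitosis, and 1 and 1 when arm none was left out.

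Levels without CCl4 also varied by arm. The summed mitotic level without CCl4 was 32.5 ± 5.2 CPM (SD, n = 4) in control mice, 19.1 ± 5.2 (n = 3) with 4MU, 44.8 ± 9.9 (n = 3) with siLuc-LNP and 70.8 ± 9.99 (n = 3) with siHAS2-LNP. With CCl4 it was 1099 ± 486 (n = 2), 310.1 ± 165 (n = 4), 723.5 ± 309 (n = 4) and 447.3 ± 34.7 (n = 4) in the same order. Without CCl4 the siHAS2-LNP group was thus highest, and with CCl4 the 4MU group was lowest, while the range over the 4 CCl4 + 4MU livers, 128 to 528 CPM, reached the 414 to 491 CPM of the 4 CCl4 + siHAS2-LNP livers.

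Targets of p53, the DNA damage factor, were higher in 13 of 18 and lower in 1, Fas (-0.25, SE 0.07), with 4 higher in all arms: Phlda3, Eda2r, Zmat3 and Aen. Phlda3, a repressor of AKT, had the smallest p of the genes higher in all 4 arms (5.33e-17 adjusted) and ran from 0.658 to 1.79 CPM (median 1.21) without CCl4 and from 12.8 to 28.8 CPM (median 15.3) with it (3.77, SE 0.15). Eda2r, a receptor of the TNF family, went from a median of 0.176 to 3.04 CPM (3.97, SE 0.34). Cdkn1a, the cyclin kinase inhibitor p21, did not pass in every arm (blocked 2.04, SE 0.32, adjusted p = 8.62e-06). It ran from 2.54 to 28.0 CPM without CCl4 and from 14.9 to 79.2 with it, and the groups overlapped.

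Of 14 genes of monocytes and scar-associated macrophages, 13 were higher and none lower, 8 of them in all 4 arms (Itgax, Trem2, Gpnmb, Spp1, Cd9, Lgals3, Ms4a7 and Cd63). Gpnmb, a lysosomal glycoprotein of lipid-laden macrophages, ran from 0 to 1.26 CPM (median 0.519) without CCl4 and from 25.2 to 176 CPM (median 84.6) with it, the largest change of the list (7.08, SE 0.37, adjusted p = 1.9e-14). Every CCl4 liver was above every other liver. Mmp12, macrophage elastase, went from 0.059 to 0.625 CPM up to 3.24 to 66.9 CPM (6.67, SE 0.47, adjusted p = 5.16e-12). Mfge8, which bridges dying cells to phagocytes, rose from a median of 7.73 to 51.9 CPM (2.73, SE 0.13, adjusted p = 3.41e-15).

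Markers of resident Kupffer cells gave a different count: of 9 tested, 1 was higher and 4 lower, and 1, Timd4, a phosphatidylserine receptor, was lower in all 4 arms (median 12.3 to 4.27 CPM; -1.42, SE 0.18, adjusted p = 3.29e-07). Clec4f, their lectin, was lower in the blocked test (-1.10, SE 0.21), with -0.77 in arm none, -0.08 with 4MU, -1.30 with siLuc-LNP and -2.12 with siHAS2-LNP, and these differed (adjusted p = 0.0234). The summed level of the list was 391.9 ± 86.4 CPM (SD, n = 4) in control mice and 290.6 ± 12.1 (n = 2) with CCl4, and 373.3 ± 27.6 (n = 3) with siHAS2-LNP and 125.9 ± 16.6 (n = 4) with siHAS2-LNP and CCl4. In the siLuc-LNP arm it went from 311 ± 109 (n = 3) to 170 ± 38.5 (n = 4). The mean of the 4MU arm did not fall, with 260.1 ± 103 (n = 3) without CCl4 and 303.4 ± 102 (n = 4) with it. Marco, a scavenger receptor and the member called higher (1.22, SE 0.44, adjusted p = 0.0244), was at most 0.802 CPM in all 14 nanoparticle-treated livers, with or without CCl4. Its call in the blocked test was lost in 9 of 39 alternatives (largest adjusted p = 0.456, without the 4MU arm). Without CCl4 mouse 2 its log2 fold change was 0.94.

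Of 12 lymphocyte genes tested, 6 were lower and none higher, among them Gzma, granzyme A (-1.01, SE 0.19), and Trbc2, the T cell receptor beta constant region (-1.0, SE 0.18), and none in all 4 arms. None of 6 neutrophil genes was called in the blocked edgeR test, 0 had an unadjusted p under 0.05, and 2 were higher in the 4MU arm alone. Of 6 erythroid genes 3 were lower (Hba-a1 -0.85, SE 0.32), with summed levels from 92.2 to 687 CPM without CCl4 and from 72.6 to 443 with it. Interferon-induced genes were higher in 8 of 13 (24.7% over all tested genes), led by Ifi44 (1.29, SE 0.17), and lower in 1, Cxcl10 (-0.62, SE 0.26, adjusted p = 0.0464), and Oas1a was higher in all 4 arms. By arm, 10 were higher with 4MU, 3 in arm none, 2 with siLuc-LNP and 2 with siHAS2-LNP. Without CCl4 their summed level was 358 ± 56.4 CPM (SD, n = 3) with 4MU, beside group means of 508 to 576 CPM in the other arms. The call of Cxcl10 was lost in 20 of 39 alternatives, most of which left out 1 library (largest adjusted p = 0.491).

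Of 16 collagens, 13 were higher and 1 lower in the blocked test and 8 higher in all 4 arms (Col1a1, Col1a2, Col3a1, Col4a1, Col4a2, Col5a2, Col6a2 and Col6a3). Col1a1, the main chain of fibrillar collagen, ran from 2.25 to 15.7 CPM (median 6.32) without CCl4 and from 30.4 to 277 CPM (median 84.0) with it (4.01, SE 0.33, adjusted p = 8.98e-11), with no overlap. Its arms gave 5.49 (none), 3.82 (4MU), 3.89 (siLuc-LNP) and 3.04 (siHAS2-LNP), and the test of their difference gave adjusted p = 0.134. Col3a1 rose from a median of 33.0 to 168 CPM (2.49, SE 0.25). The 1 lower collagen was Col18a1, which hepatocytes make (-0.34, SE 0.12, adjusted p = 0.0183). No collagen passed the test of a difference between arms, and 2 did without CCl4 + siLuc-LNP mouse 4.

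Of 18 genes of collagen processing and turnover, 15 were higher and 1 lower, P4ha2 (-0.43, SE 0.15), with 6 higher in all 4 arms: Lox, Loxl1 and Loxl2, which crosslink collagen, Pcolce, Timp1 and Mmp12. Timp1, the protease inhibitor, went from a median of 0.156 CPM (0.0404 to 0.399) to 2.48 CPM (1.03 to 5.58; 4.1, SE 0.22, adjusted p = 1.95e-14). Stellate cell and myofibroblast genes were higher in 16 of 21 and lower in 3, Ecm1, Dcn and Ngfr, with 5 higher in all arms (Vim, Reln, Lum, Sparc and Fstl1). Without arm none 12 were higher, while 16 were without CCl4 + 4MU mouse 4 or CCl4 + siLuc-LNP mouse 4. The list's median log2 fold change was 0.61, and 0.46 without arm none or without CCl4 mouse 2. Acta2, smooth muscle actin of myofibroblasts, was higher in the blocked test and not in every arm, from 0.256 to 4.56 CPM without CCl4 and from 1.07 to 41.7 CPM with it (2.69, SE 0.46, adjusted p = 2.97e-05).

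One CCl4 liver carried other markers at high levels. In CCl4 + 4MU mouse 4 the smooth muscle genes summed to 50.1 CPM (6.69 to 22.7 in the other 13 CCl4 livers), the bile duct genes to 229 CPM (30.2 to 64.2) and the gallbladder genes to 6.58 CPM (0.134 to 4.35), and it held 172 of the 181 counts of Muc4 and 147 of the 178 counts of Cnn1 among the CCl4 livers. It also held the highest value of Krt19, a duct keratin, at 92.6 CPM, while the highest value of Acta2 lay in CCl4 mouse 2. Without it the blocked log2 fold change of Krt19 moved from 2.13 to 0.99 (adjusted p = 0.0108), that of Actg2 from 2.82 to 1.68 and that of Acta2 from 2.69 to 2.38. Bile duct genes were higher in 7 of 9 tested and none in all 4 arms, and smooth muscle genes in 5 of 5 and 1, Smtn, in all 4; without this liver the counts were 6 and 4.

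Endothelial genes were higher in 8 of 14 and lower in 1, Stab2 (-0.57, SE 0.10), led by Cd34 (1.47, SE 0.22), none in all 4 arms. Periportal genes were higher in 4 of 14 tested and lower in 4, near the 24.7% and 23.3% over all tested genes, led downward by Pck1, of gluconeogenesis (-1.10, SE 0.32). The 2 higher in all arms were Cdh1, E-cadherin of epithelial junctions, from a median of 14.2 to 94.2 CPM (2.58, SE 0.15, adjusted p = 6.74e-14), and Aldh1b1, a mitochondrial aldehyde dehydrogenase, from 133 to 396 CPM (1.61, SE 0.13). Pancreas and adipose genes were all under the count minimum, and of 7 skeletal muscle genes 1 was tested and not called.

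Genes of the fetal liver and regeneration list were higher in 10 of 10 tested, 4 of them in all arms: Afp, H19, Gpc3 and Anxa2. The count was 9 without CCl4 + siLuc-LNP mouse 4 or without arm none, and 10 without CCl4 + 4MU mouse 4. Igf2, also listed, was under the count minimum, with 0 counts without CCl4 and 6 with it. Afp, alpha-fetoprotein, ran from 2.48 to 6.27 CPM (median 5.21) without CCl4 and from 51.5 to 414 CPM (median 107) with it (4.75, SE 0.28, adjusted p = 1.16e-13). The 14 and 13 livers did not overlap, and the 4 arms ran from 3.81 in arm none to 5.70 with siLuc-LNP. H19, a maternally expressed growth-regulating RNA, went from a median of 5.62 to 138 CPM (4.71, SE 0.43), and Gpc3, a heparan sulfate proteoglycan, from 1.05 to 17.9 CPM (3.91, SE 0.20). Golm1, a Golgi membrane protein, had the second smallest p of the higher genes, with 0.649 to 2.45 CPM without CCl4 and 18.1 to 77.7 CPM with it (4.66, SE 0.21, adjusted p = 1.07e-15). Itih5, of the inter-alpha-trypsin inhibitor family that binds hyaluronan, rose from a median of 6.64 to 38.9 CPM (2.63, SE 0.12, adjusted p = 1.74e-15).

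Among the named common genes with the largest rises, several were at or near 0 in the livers without CCl4. Cdh17, a cadherin of gut epithelium, had 3 counts in the 13 livers without CCl4, 11 of them at 0, and 4100 in the 14 with it, from 18 to 864 per liver. Its group means with CCl4 were 13.4 ± 0.285 CPM (SD, n = 2) in arm none, 4.41 ± 2.64 (n = 4) with 4MU, 23.9 ± 9.22 (n = 4) with siLuc-LNP and 8.27 ± 7.41 (n = 4) with siHAS2-LNP. Spink1, a trypsin inhibitor, had 6 counts against 1090, Mep1a, a brush border protease, 1 against 558, and Krt20, an intestinal keratin, 3 against 405. Cyp21a1, the adrenal steroid 21-hydroxylase, had 1 count against 658, Cacna1b, a neuronal calcium channel subunit, 1 against 335, Inava 3 against 593 and Usp43, a deubiquitinase, 6 against 481. These 8 genes were chosen among those whose groups did not overlap, and they passed the filter through the CCl4 livers, so that their separation is no result. The lowest CCl4 liver had 1 count of Krt20 and of Mep1a, which is under the floor of 3. Their fitted fold changes depend on the prior count and are left out. Ly6d, a small surface protein, was measurable in both groups, at 0.469 to 6.38 CPM without CCl4 and 53.9 to 311 CPM with it (5.90, SE 0.34, adjusted p = 1.01e-13). Akr1c18, a progesterone-reducing enzyme, had a median of 2.67 CPM with CCl4. Without CCl4 it ran from 0 to 0.229 CPM, and its median of 0.0512 CPM was under the floor of 3 counts. Its fitted fold change is therefore left out as well.

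The 4 common genes with the smallest range over the arms, among those changed by at least 2 on the log2 scale, were Sdk1, Glul, Myo5a and Npr2. Sdk1, an adhesion protein, gave 2.51, 2.26, 2.17 and 2.39 in arms none, 4MU, siLuc-LNP and siHAS2-LNP, and Myo5a, a motor protein, 2.12, 2.4, 2.01 and 2.14. Npr2, a receptor for C-type natriuretic peptide, gave -2.15, -2.03, -2.46 and -2.28. They were chosen for their evenness, which is therefore no result. Over all 804 common genes the largest of the 4 changes lay in arm none in 418, in the 4MU arm in 169, in the siLuc-LNP arm in 172 and in the siHAS2-LNP arm in 45, and the smallest in 87, 226, 90 and 401.

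A gene shared by all arms in direction may still differ in size. The test of that difference, with 3 degrees of freedom, passed for 709 genes (5.02% of those tested), and for 79 of the 804 common genes (9.83%), 71 of them higher with CCl4 and 8 lower. Since the common genes had passed in every arm, nothing is read from that share against the background. The count moved with single livers of every arm: it was 150 without CCl4 mouse 2, between 339 and 352 without siHAS2-LNP mouse 1, 2 or 3 or CCl4 + siHAS2-LNP mouse 3, and between 420 and 438 without control mouse 2, 4MU mouse 3 or CCl4 + 4MU mouse 1. It was 1147 and 1383 without CCl4 + siLuc-LNP mouse 3 and mouse 4. With the 3 arms other than none compared alone 109 genes passed, and no other arm was left out of this test.

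Trem2, a lipid receptor of scar macrophages, had the smallest p of these (adjusted p = 0.00356). Without CCl4 it was at 0.362 ± 0.19 CPM (SD, n = 4) in control mice and 0.445 ± 0.13 (n = 3) with 4MU, but at 2.82 ± 1.2 (n = 3) with siLuc-LNP and 1.6 ± 0.35 (n = 3) with siHAS2-LNP. With CCl4 it was at 14.9 ± 2.2 (n = 2), 19.9 ± 3.2 (n = 4), 15.9 ± 5.4 (n = 4) and 11.2 ± 4.4 (n = 4). The changes of 5.32 and 5.46 on the log2 scale in arms none and 4MU and of 2.49 and 2.80 in the nanoparticle arms thus stood beside different levels in the mice without CCl4 and overlapping levels in those with it.

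Mcm6 differed between arms in the size of its rise (adjusted p = 0.0102). It was not tested for a difference in level between arms, without CCl4 or with it. It was at 1.47 ± 0.69 CPM (SD, n = 4) in control mice, 0.478 ± 0.18 (n = 3) with 4MU, 3.07 ± 1.1 (n = 3) with siLuc-LNP and 4.42 ± 0.75 (n = 3) with siHAS2-LNP. With CCl4 the means were 114 ± 51 (n = 2), 17.3 ± 9.2 (n = 4), 33.0 ± 28 (n = 4) and 19.2 ± 3.1 (n = 4). Both CCl4 mice of arm none, at 78.3 and 150 CPM, were above the livers of the other CCl4 groups, the highest of which had 73.5 CPM.

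Ang, angiogenin of hepatocytes, fell by 2.92 on the log2 scale in arm none, 0.91 with 4MU, 2.88 with siLuc-LNP and 1.82 with siHAS2-LNP (adjusted p of the difference 0.0111). It shares exons with Rnase4 on the same strand, so that its reads may include that gene. Clec7a, the beta-glucan receptor dectin-1, rose most with 4MU (3.21, from 3.67 ± 1.3 to 34.4 ± 7.2 CPM, n = 3 and 4) and by 1.36, 1.49 and 1.18 in arms none, siLuc-LNP and siHAS2-LNP (adjusted p = 0.0119). Smpdl3b, a lipid-modifying enzyme of macrophages, rose by 3.32, 3.10, 3.74 and 1.58 (none, 4MU, siLuc-LNP, siHAS2-LNP; adjusted p = 0.00942), and Ndc80, a kinetochore subunit, by 5.56, 5.99, 2.70 and 1.75 (adjusted p = 0.0118), from 0.0301 ± 0.027 CPM with 4MU alone to 1.09 ± 0.3 with siHAS2-LNP alone.

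The size of the fall of Cyp2e1 differed between arms (adjusted p = 0.028), a call that was lost in 3 alternatives (largest adjusted p = 0.12). The means without CCl4 were 6276 ± 1456 CPM (SD, n = 4) in control mice, 6686 ± 1110 (n = 3) with 4MU, 7839 ± 498 (n = 3) with siLuc-LNP and 5513 ± 460 (n = 3) with siHAS2-LNP. With CCl4 they were 348 ± 190 (n = 2), 1747 ± 465 (n = 4), 804 ± 454 (n = 4) and 1463 ± 300 (n = 4). The log2 fold changes were -4.17, -1.94, -3.29 and -1.91, so that the 4MU and siHAS2-LNP arms had nearly the same value. The 2 CCl4 mice of arm none were below all 8 livers of the 4MU and siHAS2-LNP arms that had CCl4.

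**Figure D4:**
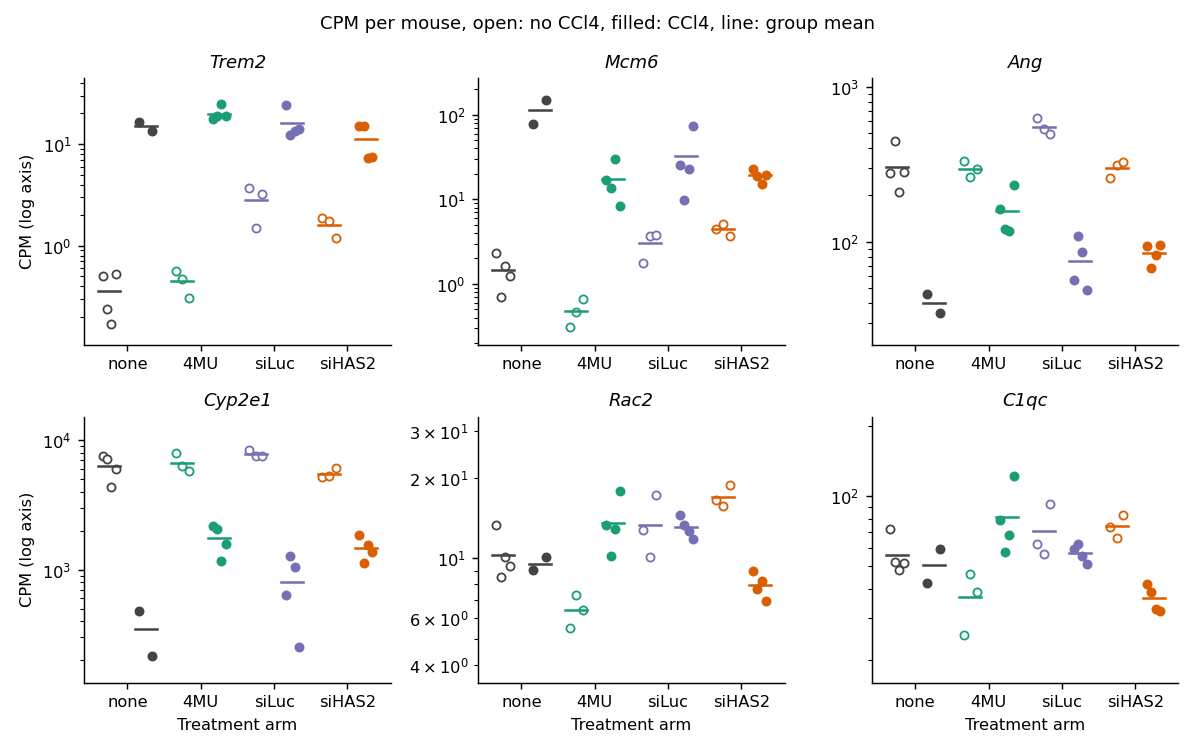
CPM of 6 genes whose CCl4 effect differed between arms (y axes, log scale) in each mouse by arm (x axis), with open points for mice without CCl4, filled points for CCl4 mice and lines at group means. Trem2 and Mcm6 rose and Ang and Cyp2e1 fell in every arm but by different sizes, while Rac2 and C1qc rose in the 4MU arm and fell in the siHAS2-LNP arm.

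A further 100 genes passed in opposite directions in at least 2 arms and thus lie outside the common response. The 5 with the smallest p of the difference were AI480526, Rac2, Zkscan3, C1qc and Tmem278. Rac2, a GTPase of blood cells, went from 6.41 ± 0.91 to 13.5 ± 3.2 CPM in the 4MU arm (n = 3 and 4) and from 17.0 ± 1.6 to 7.95 ± 0.86 CPM in the siHAS2-LNP arm (n = 3 and 4), while arm none and the siLuc-LNP arm gave -0.11 and -0.03 on the log2 scale (adjusted p = 0.00201). C1qc, a complement subunit made by macrophages, did the same, with 1.14 in the 4MU arm and -1.02 in the siHAS2-LNP arm (adjusted p = 0.00647). Zkscan3, a zinc finger repressor of autophagy genes, fell by 0.66 in arm none and rose by 0.97 in the siHAS2-LNP arm (adjusted p = 0.00201). The long non-coding RNA AI480526 and Tmem278 had -2.80 and -2.83 in arm none and 0.87 and 1.07 in the siHAS2-LNP arm.

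Of 20 genes of the endoplasmic reticulum, 5 were higher and 1 lower in the blocked test (24.7% and 23.3% over all tested genes) and none in all 4 arms, while 12 were higher in arm none, 3 in the siLuc-LNP arm and none in the others. The effect differed between arms in 5 members, in 0 without CCl4 mouse 2 or without arm none, in 2 without CCl4 + 4MU mouse 4 and in 12 without CCl4 + siLuc-LNP mouse 4. The members called higher were 3 without CCl4 mouse 2 or CCl4 + siLuc-LNP mouse 4 and 2 without arm none. Pdia6, a disulfide isomerase, was at 441 ± 54 CPM (n = 4) in control mice and 1058 ± 98 (n = 2) with CCl4, and at 485 ± 83 (n = 3) with 4MU and 512 ± 82 (n = 4) with 4MU and CCl4 (adjusted p of the difference 0.0246, lost in 4 alternatives). Acute phase genes were higher in 6 of 19, led by Saa3 (1.94, SE 0.30), and lower in 5, led by Hamp, hepcidin (-2.04, SE 0.45), none in all arms, and both counts were near the shares over all tested genes, 24.7% and 23.3%.

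Some genes often used as a reference were called as well, where 24.7% of all tested genes were higher and 23.3% lower. The list is short, and nothing is read from its counts. Of 10, 5 were higher and 1 lower in the blocked test, and 3 were higher without CCl4 mouse 2. Ppia was higher in all 4 arms, from a median of 392 CPM (321 to 459) to 569 CPM (445 to 727; 0.54, SE 0.08, adjusted p = 2.58e-06), a call in every arm that was lost without CCl4 mouse 2. B2m, a subunit of MHC class I, was lower in the blocked test (-0.58, SE 0.12).

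**Figure D5:**
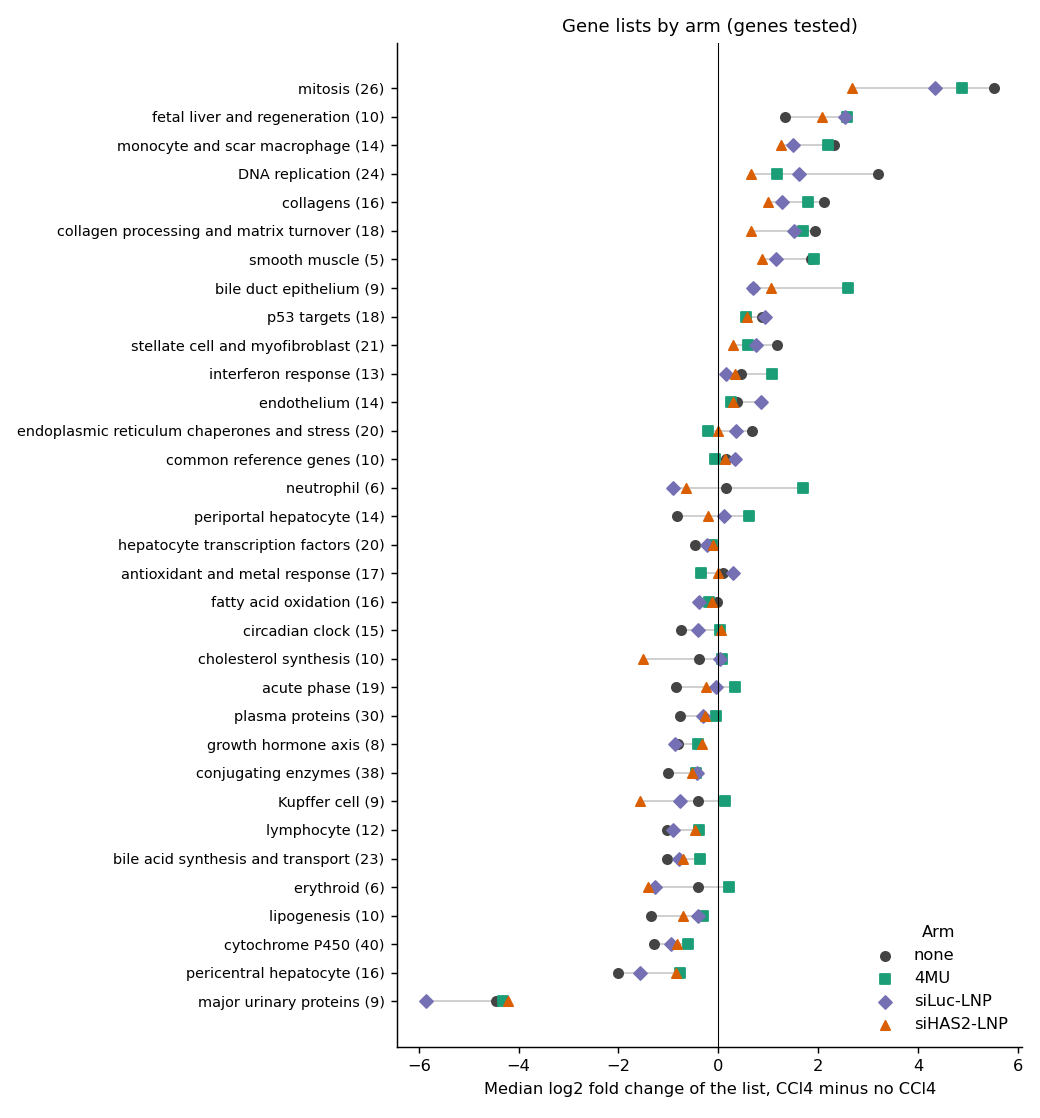
Median log2 fold change with CCl4 (x axis) of each gene list with at least 5 tested genes (y axis, number tested in brackets), with 1 marker per arm. Mitosis has the highest median in each arm, from 2.68 (siHAS2-LNP) to 5.52 (none), and the major urinary proteins the lowest, from -5.86 to -4.21.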

How the data were processed

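Polyadenylated RNA of 27 livers was sequenced in read pairs. Per the labels and methods, the authors removed adapters (Trimmomatic 0.39), mapped read pairs on the GRCm39 build (HISAT2, version not given in the sources used here) and counted pairs per gene with featureCounts without multi-mapping reads. The deposited values are raw counts per gene and library. The strand setting is not given in the sources used here, and 28 of the 97 named genes share exonic bases with a gene on the opposite strand and 7 with one on the same strand, so that their counts are uncertain, as are those of near-identical paralogs (Mup, Cyp2c, Cyp3a41, Serpina1, Sult and globin genes).

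Genes averaging 10 counts or more over the libraries were kept (14114). Counts were scaled by TMM and tested with the quasi-likelihood test of edgeR 4.0.16 in R 4.3.3: CCl4 with the arm as a block, CCl4 within each arm in a fit of 8 groups, and the difference between arms with 3 degrees of freedom. A gene was called at a Benjamini-Hochberg adjusted p under 0.05 over all genes tested. SE is the standard error of the log2 fold change. The tests were checked on simulated data. Alternatives used DESeq2 1.42.0, limma 3.58.1, other scaling, filters and thresholds, a replicate block, and each library or arm left out. A left-out CCl4 mouse leaves 1 in arm none, which is then assumed to vary like the other groups. Leaving out arm none in the test between arms, and all list counts with a library or arm left out, were chosen after seeing the data. Such list counts were made without CCl4 mouse 2, CCl4 + 4MU mouse 4, CCl4 + siLuc-LNP mouse 4 or arm none. They were not made for any other library or arm.

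Named genes were the 12 largest changes per direction among non-overlapping common genes of at least 1 CPM, the 5 smallest p values per direction, 6 differing, 4 even and 5 opposite genes, the extremes of each list, and a fixed set of markers. Other genes mentioned above lie outside these 97, and counts over the named genes do not cover them. The members, the 37 gene lists and the tests were chosen with earlier results of these data known. Mice of 1 group are replicates by the labels. No 2 libraries of a group agreed within sampling noise (chi-square per degree of freedom 17 to 473 over 34 pairs). Counting floors cover counting error only. Motifs were searched in RefSeq promoter tables of GRCm38.p6, and gene coordinates are of GRCm39. Some genes are not reported here.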

Additional observations from a re-analysis of the deposited data

Results flagged for a closer look

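Cyp7a1 and Clec4f, whose difference between arms is given above, lie outside the 97 named genes and are not counted here. The CCl4 effect differed between arms for 17 of the 97 named genes by the edgeR test of the difference, with adjusted p of 0.000243 for AI480526, 0.00201 for Rac2 and for Zkscan3, 0.00356 for Trem2, 0.00647 for C1qc and for Tmem278, 0.00942 for Smpdl3b, 0.0102 for Mcm6, 0.0111 for Ang, 0.0118 for Ndc80, 0.0119 for Clec7a, 0.0246 for Pdia6, 0.0263 for B2m, 0.028 for Cyp2e1 and for Mki67, 0.0367 for Pck1 and 0.042 for Marco. Among the alternatives that kept all 4 arms, this call was lost in 19 for Marco, 14 for Pck1, 4 each for Mki67, B2m and Pdia6 and 3 for Cyp2e1, and in none for the other 11. B2m fell from 1944 to 732 CPM in arm none and from 1521 to 1341 in the 4MU arm (group means). Pck1 went from 1192 to 2027 CPM in the 4MU arm and from 1423 to 355 in the siLuc-LNP arm.

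Gaps within a group were examined only in groups of 4 livers. The CCl4 group (n = 2) and the 4MU, siLuc-LNP and siHAS2-LNP groups (n = 3) were not examined. Single livers stood apart from the others of their group in 29 of 358 pairs of a named gene and a group (8.10%, where chance gives about 5%), by a gap larger than Dixon's limit. CCl4 + 4MU mouse 4 had 5 of these: Acta2 at 23.2 CPM, Actg2 at 6.55, Hba-a1 at 148.5 (the others at most 33.0), Itih5 at 23.4 (the others at least 38.1) and Krt19 at 92.6 (the others at most 2.51). CCl4 + 4MU mouse 3 had Cdh1 at 85.7 CPM and Cyp3a41b at 0.296. CCl4 + siHAS2-LNP mouse 4, the library with the lowest total, had Cyp2c69 at 4.81, Cyp3a16 at 1.20, Krt19 at 2.80 and Sdk1 at 5.07. Other livers of that group were mouse 1 with Hamp at 318.9, Igfbp1 at 178.2 and Tmem278 at 1.10, mouse 2 with Gzma at 1.07 and Mmp12 at 27.5, and mouse 3 with Zkscan3 at 59.6. In the CCl4 + siLuc-LNP group, mouse 3 had Pck1 at 859, Phlda3 at 28.8 and Slc51b at 6.24, mouse 1 had Trem2 at 24.0 and mouse 4 had Atf4 at 70.7. Among control mice, mouse 1 had C1qc at 72.1, Cxcl10 at 6.26 and Mup18 at 57.8, mouse 3 had Pgd at 93.4 and Stab2 at 29.9, and mouse 4 had Dlk1 at 0.164 (the others at 0) and Glul at 451.8.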

How the results depend on the processing

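With an unadjusted p, 911 genes were higher and 471 lower in all 4 arms, the 4MU, siLuc-LNP and siHAS2-LNP arms called 5077, 5179 and 3855 genes, and 3605 differed between arms. With a log2 fold change of at least 1 as well, 1121 were higher and 376 lower in the blocked test (74.9% higher of all called, against 51.4%), 95 lower in all 4 arms, and the arms none, 4MU, siLuc-LNP and siHAS2-LNP called 2636, 1638, 1644 and 957. The genes that differed between arms were 1748 with DESeq2, 2032 with no filter and 109 without arm none. Limma-voom called 3455 genes in the siHAS2-LNP arm, and the siLuc-LNP arm fitted alone called 1504. The cause of these shifts was not tested. Leaving out 1 library gave 3180 to 3576 genes higher and 2970 to 3349 lower in the blocked test, 415 to 604 higher and 163 to 261 lower in all 4 arms, 2154 to 5143 in arm none, 2138 to 3671 with 4MU, 2387 to 3703 with siLuc-LNP, 1026 to 2096 with siHAS2-LNP, and 150 (without CCl4 mouse 2) to 1383 (without CCl4 + siLuc-LNP mouse 4) that differed between arms.

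Replicate numbers did not pair the livers: deviations of 83 same-numbered pairs correlated at -0.32 to 0.293, and 17 were over 0.1. With the replicate number as a block, 3247 genes were higher and 3081 lower, 515 and 175 in all 4 arms, the arms none, 4MU, siLuc-LNP and siHAS2-LNP called 4520, 2880, 2905 and 1538, and 480 differed between arms.

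Over 39 alternatives of 97 named genes, 3684 values kept direction and side of the threshold, 71 lost the call, 6 gained it and 22 turned, all of the latter in Hnf4a, Rac2, C1qc, Zkscan3 and Tmem278, none of which was called in the blocked test. With the mean of the 4 arms Zkscan3 was at -0.018 and Hnf4a at -0.0031. Without arm none Tmem278 was at 0.25, without the siLuc-LNP arm Hnf4a at -0.049, and without the siHAS2-LNP arm Rac2 at 0.34, Zkscan3 at -0.31, C1qc at 0.25 and Hnf4a at -0.017. With 1 library left out, the values of genes that turned ran from -0.033 to 0.057 for Hnf4a, from -0.065 to 0.088 for Zkscan3, from -0.15 to 0.0062 for Rac2 and from -0.35 to 0.0059 for Tmem278. Genes at or near the floor of 3 counts are limited by depth.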
